A study of Neurospora crassa with 14 samples.

Results

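Along 5 stretches of the Neurospora crassa genome, neighbouring genes changed together when sds3, rlp1, rlp2 or eaf-3 was deleted or when histone deacetylases were inhibited. Not every stretch changed in each of these comparisons. The stretches, called runs here and named by their first and last gene, hold 33 of the 9552 genes listed in any of 5 deposited comparisons. Membership followed the number in the gene identifier: 9 genes in NCU02919-NCU02927, 8 in NCU08078-NCU08086, 8 in NCU09167-NCU09174, 3 in NCU05763-NCU05766 and 5 in NCU09636-NCU09641, with NCU09638 left out. The ranges were chosen by the deposited fold changes of these same 5 comparisons, because neighbouring genes moved together in them. All counts and fold changes below therefore describe how the genes changed and are no independent evidence that they did.

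Neurospora crassa is a filamentous fungus. Messenger RNA of its mycelium, the network of vegetative hyphae, was sequenced in 14 libraries, 2 in each of 7 groups. A deletion set of 10 libraries held wild type and strains deleted for sds3 (NCU01599), rlp1 (NCU09007), rlp2 (NCU02898) or eaf-3 (NCU06788), and the libraries of a group came from different strains. A set of 4 libraries held strain N6279 with 5 ul or 0 ul of Trichostatin A (TSA), an inhibitor of histone deacetylases. Treated and untreated cultures of N6279 alike were his-3 mutant, were given histidine, and carried the markers pNCU05173::hph and pNCU07152::nat-1. All cultures were 5 ml in minimal medium with 1.5% sucrose, shaken for 16 h at 32 °C. The TSA samples are labelled as biological replicates of 1 strain.

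In fungi the deacetylase RPD3 sits in a large complex, RPD3L, and a small one, RPD3S. In budding yeast Sds3 is a subunit of RPD3L, while Eaf3, which binds methylated lysine 36 of histone H3, is a subunit of RPD3S and of the acetyltransferase complex NuA4. Facultative heterochromatin is chromatin whose genes are kept silent but can be switched on. In Neurospora it carries methylation of lysine 27 of histone H3, laid down by the methyltransferase SET-7, and much of it lies near chromosome ends. Fungal genes for one secondary metabolite often lie side by side, next to a polyketide synthase or another core enzyme. No histone mark was measured in these libraries.

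All fold changes are log2 values from the authors' deposited table of each comparison. The sign ± gives a standard error worked back from that value and its p-value in the same table. A gene is called higher or lower where the table's adjusted p was below 0.05. Single libraries are not resolved in these tables, so depth and the spread between the 2 libraries of a group are unknown here. Levels are normalized signals per group, computed from the deletion set's average signal and the 4 deposited fold changes. They assume that this average covers all 10 libraries with equal weight per group, which the tables do not state. They are not per gene length and are compared within a gene. Where the implied wild type level was under 1, the fitted fold change is no bound on the true one. All 4 deletions were compared with the same wild type libraries, so that a low or high wild type value enters each of these comparisons.

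As a check of the labels, eaf-3 fell by 8.95 ± 1.48 and rlp2 by 2.95 ± 0.32 in the authors' deposited table of their own deletion, while sds3 fell by 0.76 ± 0.19 and rlp1 by 1.03 ± 0.33, a partial fall. Directions for the libraries labelled sds3 and rlp1 therefore rest more on the labels. Conidiation markers were a list of 10 that includes con-6, con-8 and the hydrophobin gene eas, of which eas was called only without rlp1. In the sds3, rlp1, rlp2 and eaf-3 deletions 6, 9, 6 and 5 of these markers were higher, with TSA 1 was (con-10), and none was lower. Their summed implied level was 32634 in wild type and lay between 86290 (eaf-3) and 280417 (rlp1) in the deletions. The sum was thus larger in each deletion than in wild type. It rests mostly on the most abundant genes: the 10 deposited averages sum to 140002, with eas at 83554 and ccg-1 at 25456. It does not show that each transcript was present in each group. Without eaf-3 the value of eas was -0.81 ± 0.91, not called. None of the 10 had a deposited average of 0. Of 11 markers of perithecia and sexual tissue 4, 5, 3 and 5 were higher without sds3, rlp1, rlp2 and eaf-3, with 2 lower without sds3, and 4 were higher with TSA. Among all tested genes, 19.0%, 14.6%, 6.99% and 20.2% were higher without sds3, rlp1, rlp2 and eaf-3, and 5.15% with TSA. Without sds3, 15.7% were lower. In these bulk samples a change in the share of a cell type and a change in RNA per cell cannot be told apart, and the part of either in the runs was not tested.

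Over all 33 genes, 23 were higher in the sds3 deletion, 23 in the rlp1 deletion, 10 in the rlp2 deletion, 17 in the eaf-3 deletion and 9 with TSA. In the same order, the share of all tested genes called higher was 19.0%, 14.6%, 6.99%, 20.2% and 5.15%. Members called lower numbered 0 in the sds3, rlp1 and rlp2 deletions, where 15.7%, 8.61% and 4.02% of all genes were lower. There was 1 in the eaf-3 deletion, against 11.5% of all genes, and there were 5 with TSA, against 3.62%. Not every member had an adjusted p: it was missing for 1 in the rlp1 and 7 in the rlp2 deletion, and with TSA 31 members were listed, of which 26 had one. The median log2 fold change over the members was 4.75 (sds3), 4.92 (rlp1), 1.52 (rlp2), 2.15 (eaf-3) and 1.10 (TSA), where the medians over all genes lay between -0.10 and 0.08. The lowest of these was that of TSA, where 449 genes were higher and 316 lower, or 547 and 234 once the fold changes were centred on their median; no call of a member changed with it. Since the ranges were picked for their fold changes, nothing is read from these contrasts with the background. With the authors' own category, which also asks for an absolute log2 fold change over 2, 5 members in place of 10 were higher in the rlp2 deletion, against 2.04% of all genes.

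**Figure D1:**
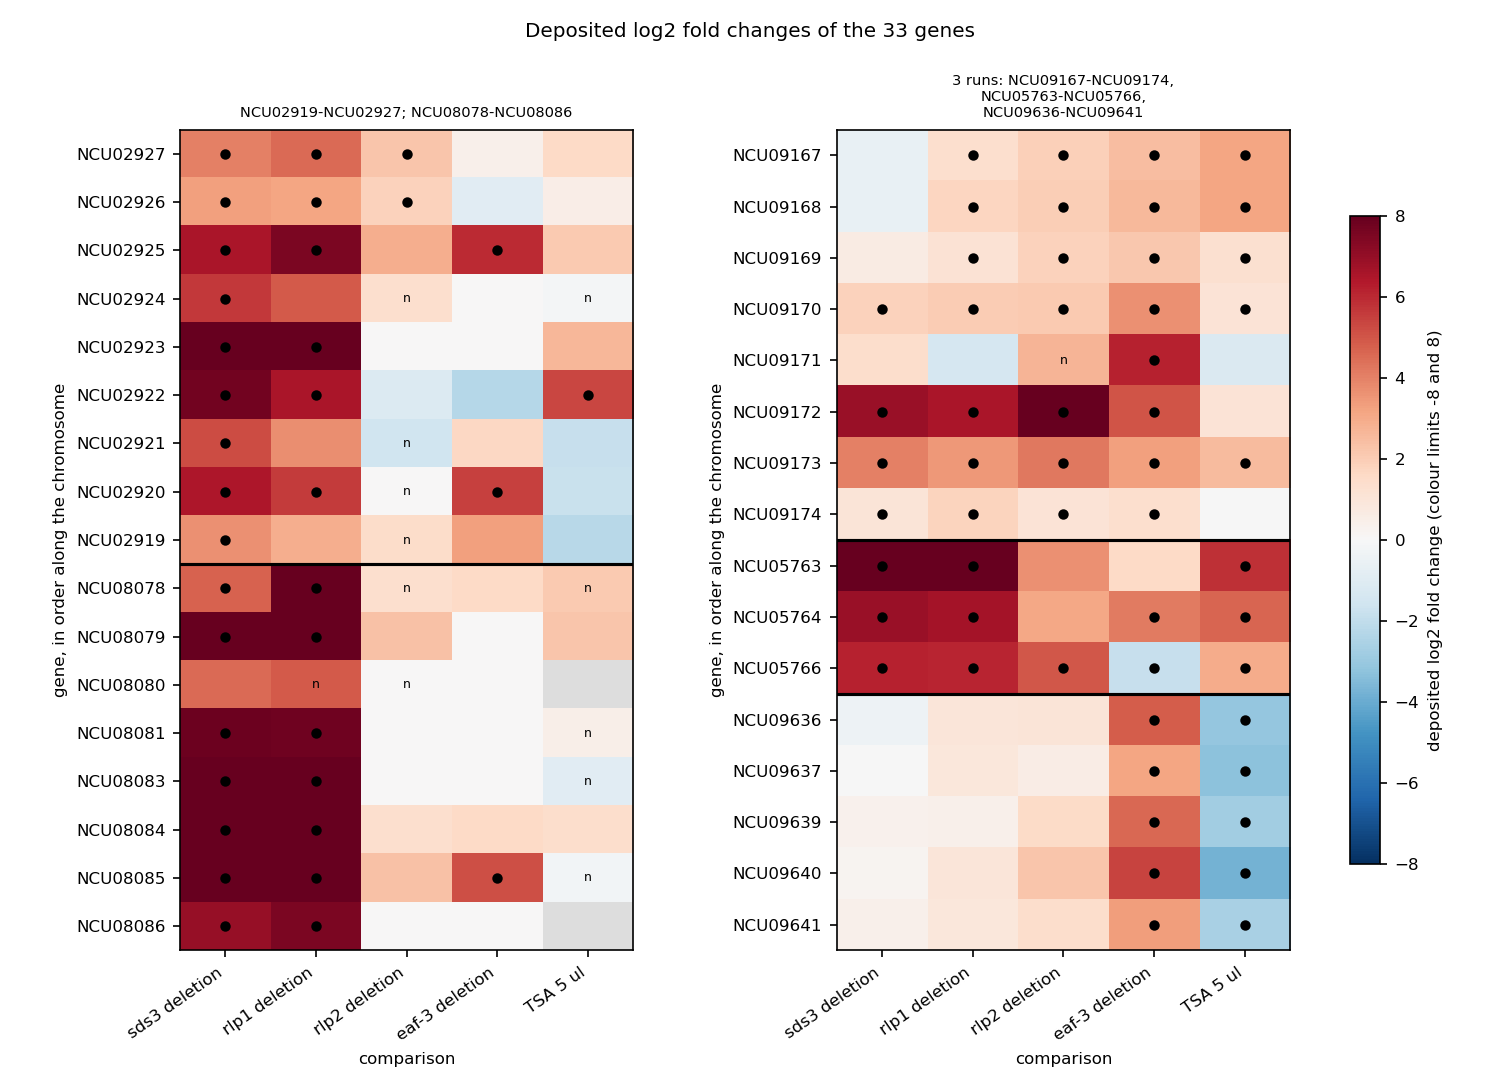
Deposited log2 fold changes of the 33 genes, 1 row per gene in chromosome order and 1 column per comparison; red is higher and blue lower, colours end at -8 and 8, a dot marks an adjusted p under 0.05, n marks no adjusted p and grey a gene not listed. The first and second runs are red mainly without sds3 and rlp1, and the last run is red without eaf-3 and blue with TSA.

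The run NCU02919-NCU02927 rose without sds3, where 9 of 9 genes were higher, though NCU02919, NCU02921 and NCU02924 did not pass an adjusted p below 0.01. It lies on linkage group I (assembly NC12, chrI:8669474-8690371), 1082 kb from the nearest chromosome end as marked by the last listed gene, and spans 20.9 kb. The reference gene table names only fbm-1 (NCU02925) in it. The genes are short, with a median of 1178 bp against 2127 bp over all protein-coding genes. Next to it stands pks-6 (NCU02918), a polyketide synthase gene outside the run.

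NCU02923 and NCU02922, in the middle of this run, changed most without sds3. The implied level of NCU02923 was 202 without sds3, 77.7 without rlp1 and under 1 in wild type and in the rlp2 and eaf-3 deletions. Its fold change was 10.20 ± 1.54 without sds3 and 8.82 ± 1.54 without rlp1 in the authors' deposited table, and exactly 0 without rlp2 and eaf-3. The adjusted p values there were 1.15e-09 (sds3) and 3.10e-07 (rlp1). NCU02922 stood at 194 without sds3, 84.6 without rlp1 and under 1 in the 3 other groups. Both genes were thus on in the same 2 deletion groups and near 0 in the rest. NCU02922 was also the 1 gene of this run higher with TSA, by 5.33 ± 1.18 in the authors' deposited table, while NCU02923 stood at 2.66 ± 1.05 and did not pass. With TSA 5 of the 9 members had positive and 4 negative values, and none was called lower. Among the negative ones were the adjacent NCU02919 (-2.23 ± 2.28), NCU02920 (-1.79 ± 1.33) and NCU02921 (-1.86 ± 1.74).

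The genes at the far side, NCU02926 and NCU02927, had some signal in wild type and a smaller change. NCU02926 went from 11.7 in wild type to 116 without sds3, 102 without rlp1 and 41.6 without rlp2, and stood at 6.19 without eaf-3. Its fold change was 3.31 ± 0.50, 3.13 ± 0.50 and 1.83 ± 0.51 without sds3, rlp1 and rlp2 in the authors' deposited table, all higher, and -0.92 ± 0.64 without eaf-3, not called. NCU02927 went from 3.54 to 57.6, 81.1 and 16.5, with fold changes of 4.02 ± 0.77, 4.52 ± 0.76 and 2.22 ± 0.79. These were the 2 genes of the run called higher without rlp2. For NCU02927 the deposited adjusted p there was 0.0469, which does not pass 0.01. The deleted gene rlp2 lies 66.4 kb from this run on the same linkage group, beyond its pks-6 side. NCU02926 and NCU02927 are thus the members farthest from rlp2.

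fbm-1 and NCU02920 were the 2 genes of this run called higher without eaf-3. The level of fbm-1 was under 1 in wild type and 15.5, 31.3, 1.29 and 10.7 in the sds3, rlp1, rlp2 and eaf-3 deletions. In the authors' deposited table it was higher by 6.51 ± 1.72, 7.52 ± 1.70 and 5.98 ± 1.72 without sds3, rlp1 and eaf-3. NCU02920 was higher in the same 3, by 6.48 ± 1.94, 5.60 ± 1.95 and 5.47 ± 1.96. The low genes NCU02919, NCU02921 and NCU02924, with deposited averages of 9.60, 5.21 and 2.85, were higher without sds3, by 3.63 ± 1.40, 5.20 ± 1.90 and 5.63 ± 2.30, and not called without rlp1, where their values were 2.90 ± 1.41, 3.72 ± 1.92 and 4.92 ± 2.31 in the authors' deposited table. The sds3 and rlp1 values of these 3 genes differ by less than their standard errors, and the difference was not tested. On the pks-6 side of the run, pks-6 itself was not called without sds3 (0.21 ± 0.76) or rlp1 (0.20 ± 0.75) and was higher without eaf-3 (2.03 ± 0.71) in the authors' deposited table. NCU02917, beyond it, was called in no comparison. On the other side NCU02928 was called in none and NCU02929 was higher with TSA (2.27 ± 0.63) and called in no deletion. The 2 genes beyond these, chosen after their values were seen, were again higher without sds3 and rlp1: NCU02930 by 2.52 ± 0.37 and 3.47 ± 0.36, and NCU02931 by 1.69 ± 0.61 and 2.72 ± 0.60 in the authors' deposited table. NCU02930 was also higher with TSA (2.48 ± 0.53). NCU16468, between the members, was higher without sds3 (3.46 ± 0.60) and rlp1 (2.92 ± 0.60).

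The run NCU08078-NCU08086 was called mainly in the sds3 and rlp1 deletions. Without sds3 7 of 8 genes were higher and without rlp1 also 7, while 0 were higher without rlp2 and 1 without eaf-3; with TSA 0 were higher and 2 of the 6 listed had an adjusted p. It lies near the left end of linkage group I (assembly NC12, chrI:190407-216521), 45 protein-coding genes and 190 kb from the first base, and spans 26.1 kb. No gene of it has a symbol in the reference gene table. Their median length was 826.5 bp, and the shortest, NCU08081 and NCU08080, are 303 bp and 315 bp.

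Every gene of this run had an implied wild type level under 1. Summed over the 8 genes the level was 718, 928, 3.28 and 8.11 in the sds3, rlp1, rlp2 and eaf-3 deletions. NCU08085 had the largest fold changes of the run in the sds3 and rlp1 deletions. It stood at 433 in the sds3, 430 in the rlp1 and 6.23 in the eaf-3 deletion, and under 1 in the rlp2 deletion. In the authors' deposited table it was higher by 11.29 ± 1.52 and 11.28 ± 1.52 without sds3 and rlp1, and by 5.17 ± 1.57 without eaf-3. It was the gene of the run that passed without eaf-3.

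NCU08079 stood at 102 without sds3 and 174 without rlp1 (fold changes 9.21 ± 1.51 and 9.98 ± 1.51 in the authors' deposited table). NCU08084 stood at 64.8 and 125, NCU08083 at 47.5 and 82.1, and NCU08081 at 39.3 and 37.4. These 4 genes were under 1 in wild type, without rlp2 and without eaf-3 alike. NCU08078 showed the widest gap between the 2 deletions, at 4.58 without sds3 and 42.2 without rlp1, with fold changes of 4.75 ± 1.83 and 7.95 ± 1.76 in the authors' deposited table. NCU08086 stood at 21.8 and 31.1. The exception was NCU08080, at 3.71 and 4.95, whose value of 4.52 ± 3.01 without sds3 did not pass and which had no adjusted p without rlp1.

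Neither neighbour of this run was called higher without sds3. NCU08077, the gene before it, was not called without sds3 (1.39 ± 1.69) or rlp1 (3.70 ± 1.56) in the authors' deposited table. Without sds3 its value and that of the adjoining member NCU08078 overlap within their errors. The next gene outward, NCU08076, was higher without rlp1 (2.11 ± 0.24) and rlp2 (1.11 ± 0.24), lower without eaf-3 (-1.20 ± 0.27) and not called without sds3 (0.40 ± 0.25) in the authors' deposited table. NCU08087, the gene after the run, was lower without sds3 (-3.39 ± 0.62) and rlp2 (-1.95 ± 0.53) and not called without rlp1 (-0.32 ± 0.51). In levels NCU08087 stood at 97.3 in wild type and 9.25 without sds3, so NCU08086 and a neighbour starting 2875 bp further on moved in opposite directions in the same libraries. NCU08089, beyond it, was called in no comparison. Between the members lies NCU16305, a gene with a newer identifier, which was higher without sds3 (6.41 ± 1.92) and rlp1 (6.98 ± 1.91) in the authors' deposited table.

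**Figure D2:**
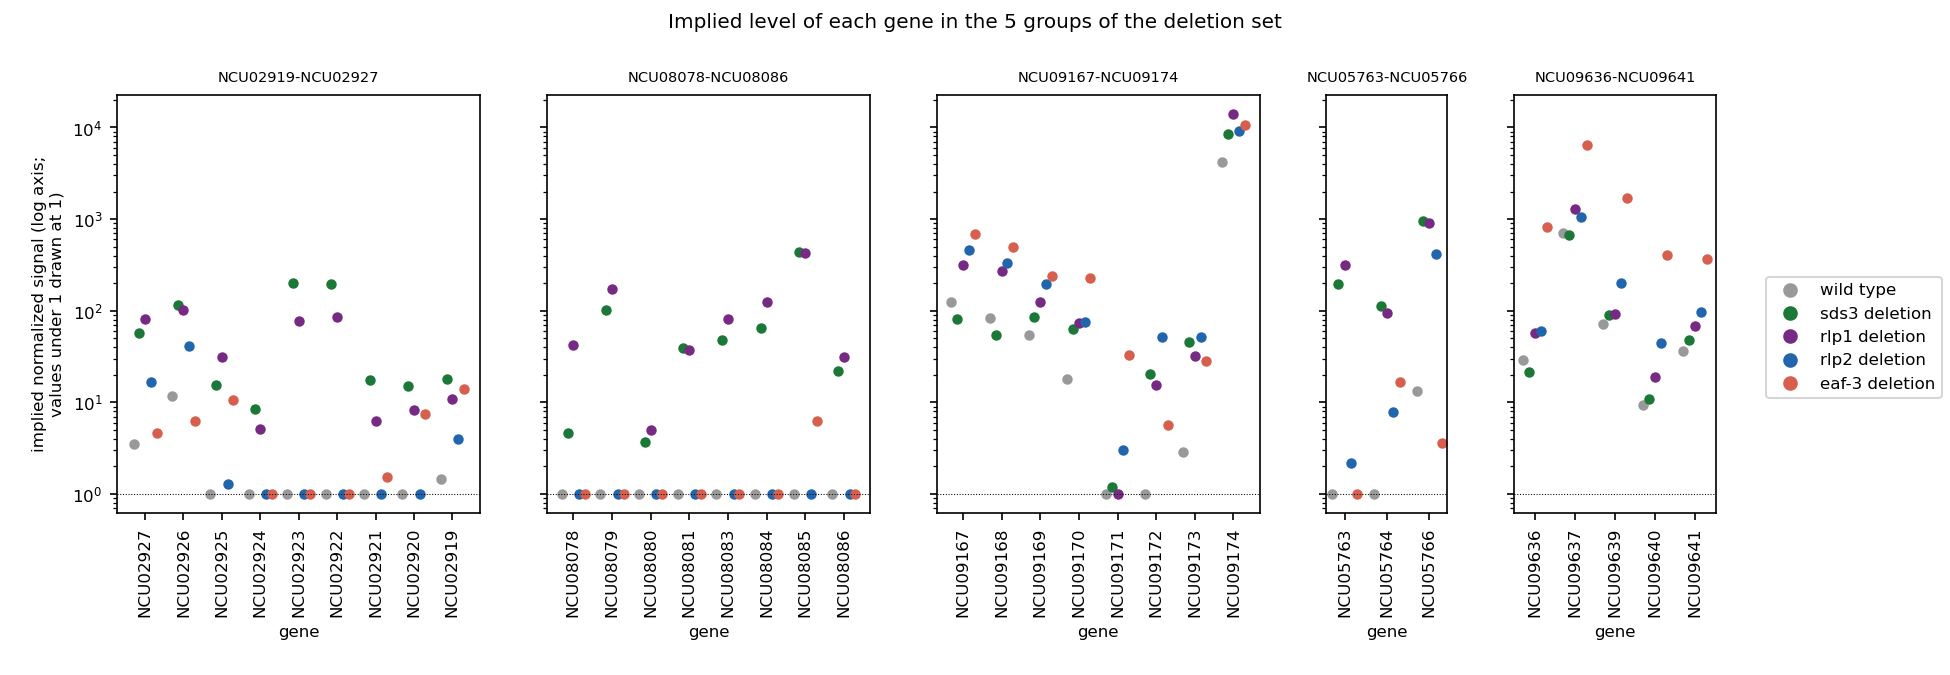
Implied normalized signal of each gene on a log axis in wild type and the 4 deletion groups, 1 panel per run; each point is 1 group, values under 1 are drawn at 1, and no error can be given without values per library. In NCU08078-NCU08086 only the sds3 and rlp1 points leave the floor except for NCU08085, and in NCU09636-NCU09641 the eaf-3 points lie above the other 4 groups.

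NCU09167-NCU09174 changed in all 4 deletions. Of its 8 genes 4, 7, 7 and 8 were higher in the sds3, rlp1, rlp2 and eaf-3 deletions, and 5 were higher with TSA. Among all tested genes 19.0%, 14.6%, 6.99%, 20.2% and 5.15% were higher in the same order. Under the authors' category the counts of the 4 deletions were 2, 3, 3 and 7 and that of TSA was 3. At an adjusted p below 0.01 the TSA count was 2 (NCU09169 and NCU09173). Of all tested genes, 2.04% were higher without rlp2 under the authors' category. Other shares under these 2 stricter rules were not computed, so these counts show only how the calls depend on the rule. The run lies on linkage group III (assembly NC12, chrIII:230217-256630), 52 protein-coding genes and 230 kb from the nearest end, and spans 26.4 kb. In wild type 6 of its 8 genes stood at 1 or more, and its genes have a median length of 2102 bp.

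The first part of the run followed one order of the deletions. NCU09167 stood at 124 in wild type and at 81.4, 318, 457 and 695 in the sds3, rlp1, rlp2 and eaf-3 deletions. Its fold changes in the authors' deposited table were -0.61 ± 0.55, 1.36 ± 0.53, 1.88 ± 0.53 and 2.49 ± 0.53, of which the last 3 were called higher. NCU09168 had nearly the same values, -0.61 ± 0.49, 1.69 ± 0.46, 1.98 ± 0.46 and 2.59 ± 0.46. In NCU09169 the level rose from 54.1 to 240 without eaf-3 (2.15 ± 0.40), and was not called without sds3 (0.66 ± 0.41). In all 3 genes sds3 gave the lowest and eaf-3 the highest value of the 4 deletions; differences between deletions were not tested. With TSA the 3 genes were higher by 3.16 ± 1.06, 3.15 ± 0.98 and 1.31 ± 0.36 in the authors' deposited table.

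NCU09170, NCU09172, NCU09173 and NCU09174 were higher in each of the 4 deletions, the only members of any run of which this holds. NCU09172 went from under 1 in wild type to 20.2, 15.6, 52.1 and 5.59 in the sds3, rlp1, rlp2 and eaf-3 deletions. NCU09173 went from 2.84 to between 28.0 and 51.8, with fold changes from 3.31 ± 0.76 without eaf-3 to 4.19 ± 0.75 without rlp2 in the authors' deposited table. Here eaf-3 gave the smallest value, unlike in the first genes of the run. NCU09174 stood at 4165 in wild type and between 8451 without sds3 and 14201 without rlp1. Its changes were small but precise, from 1.02 ± 0.29 without sds3 to 1.77 ± 0.29 without rlp1 in the authors' deposited table. With TSA it did not pass (-0.02 ± 0.99), whereas NCU09170 (1.12 ± 0.35) and NCU09173 (2.55 ± 0.71) were higher. A tRNA gene lies inside the NCU09174 model.

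NCU09171 stood apart within the run. It was at 32.8 without eaf-3 and at 3.02 or less in the other 4 groups, higher without eaf-3 (6.16 ± 1.92) and not called without sds3 (1.40 ± 2.17) or rlp1 (-1.36 ± 2.39) in the authors' deposited table. On the far side the next gene, NCU09175, stood at 25609 in wild type, with values from -0.15 ± 0.23 to 0.19 ± 0.23 over the 4 deletions and none called. That gene starts 1046 bp from the end of NCU09174, and its standard errors are the smallest of the flanking genes of this run. NCU09176, beyond it, was called in no comparison. Further out, NCU09177 and NCU09178, chosen after their values were seen, had higher implied levels in each deletion than in wild type. These levels carry no error and are not calls. NCU09178 stood at 20.6 in wild type and at 335, 237, 130 and 120 in the sds3, rlp1, rlp2 and eaf-3 deletions. NCU09177 was under 1 in wild type and at 24.0, 10.0, 6.07 and 2.06 in the same order. On the near side NCU09166 had no adjusted p in any comparison, and NCU09165 was lower without sds3 (-2.47 ± 0.69) in the authors' deposited table and not called in the others.

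All 3 genes of NCU05763-NCU05766 were higher in the sds3 and rlp1 deletions and with TSA. In the rlp2 deletion 1 was higher, and in the eaf-3 deletion 1 was higher and 1 lower. The run lies on linkage group VII (assembly NC12, chrVII:3738189-3752208), 140 protein-coding genes and 483 kb from the nearest end, and spans 14.0 kb. No gene has a symbol. Identifiers of this range were revised: NCU17269 and NCU17271 carry NCU05765 as their older identifier, and 5 genes with newer identifiers lie between the 3 members.

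NCU05766 had the best determined change. Its level was 13.3 in wild type and 959, 915, 418 and 3.63 in the sds3, rlp1, rlp2 and eaf-3 deletions. In the authors' deposited table these were fold changes of 6.18 ± 0.45, 6.11 ± 0.45, 4.98 ± 0.45 and -1.87 ± 0.71, so it was higher in 3 deletions and lower in the one of eaf-3, with an adjusted p of 0.0297, which does not pass 0.01. It was the only member of any run called lower in a deletion. With TSA it was higher by 2.95 ± 0.46.

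NCU05763 and NCU05764 were higher without sds3 and rlp1 like NCU05766. Both were under 1 in wild type, so a fall without eaf-3 could not have been seen in them. NCU05763 went from under 1 to 197 and 319 without sds3 and rlp1, and stood at 2.17 without rlp2 and under 1 without eaf-3. NCU05764 went from under 1 to 111 and 95.2, with 7.83 without rlp2 and 16.6 without eaf-3, where it was higher by 4.15 ± 1.14 in the authors' deposited table. With TSA the 2 genes were higher by 5.82 ± 1.64 and 4.64 ± 0.76. The end of the NCU05763 model overlaps NCU17267, and reads of the overlap may have been given to either.

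The genes between these members moved with them. Of the 5, 4 were higher without sds3, 4 without rlp1 and 5 with TSA, and the exception in both deletions was NCU17270, at 4.18 ± 1.97 and 4.39 ± 1.96 in the authors' deposited table. NCU17268, for instance, was higher by 5.17 ± 1.02 without sds3 and by 3.85 ± 0.61 with TSA in the authors' deposited table. NCU17271 resembled NCU05766 in its rise without sds3, rlp1 and rlp2, from 1.39 in wild type to 277, 384 and 142. Without eaf-3 it stood at 3.11, above its wild type level, whereas NCU05766 was lower there. With these included, 8 adjacent genes from NCU05763 to NCU05766 were higher with TSA, the longest stretch of adjacent genes called higher in that comparison. The rise without sds3 and rlp1 reached further on both sides, to NCU05762 (6.33 ± 0.91 and 7.29 ± 0.91) and NCU05767 (2.75 ± 0.72 and 3.82 ± 0.71) in the authors' deposited table. Neither was called with TSA (1.83 ± 0.93 and 0.40 ± 0.94). NCU05767 was higher without rlp2 too, at 88.3 against 6.28 in wild type. In that deletion 4 adjacent genes, from NCU17271 to NCU05768, were called higher. NCU05761, outside NCU05762, was called in no comparison. The next gene, the perithecial gene poi-2 (NCU05768), was higher without eaf-3 (5.70 ± 0.42) and rlp2 (2.14 ± 0.43) and was not called without sds3 or rlp1.

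NCU09636-NCU09641 changed in opposite directions in 2 comparisons that share no library. All 5 genes were higher without eaf-3 and all 5 were lower with TSA. Without sds3, rlp1 or rlp2 none was called, with values from -0.44 ± 1.17 to 2.23 ± 0.96 in the authors' deposited table. The run is the one nearest to a chromosome end: it lies on linkage group IV (assembly NC12, chrIV:6446-31245), 2 protein-coding genes and 6.4 kb from the first base, and spans 24.8 kb. Inside it stands pks-5 (NCU09638), a polyketide synthase gene that is not a member.

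NCU09640 changed most. It stood at 9.46 in wild type, 10.9, 18.7 and 44.5 without sds3, rlp1 and rlp2, and 406 without eaf-3. Its fold change was 5.42 ± 0.95 without eaf-3 and -3.76 ± 0.95 with TSA in the authors' deposited table, with adjusted p values of 2.61e-07 and 0.00227. NCU09636 was higher without eaf-3 by 4.82 ± 1.15 and lower with TSA (-3.11 ± 0.89), and NCU09639 by 4.59 ± 0.93 and -2.77 ± 0.77. NCU09641 had 3.34 ± 0.74 and -2.58 ± 0.58. In levels NCU09639 went from 71.0 in wild type to 1705 in the eaf-3 deletion, NCU09636 from 28.9 to 814, and NCU09641 from 36.4 to 368. The other 3 deletions lay far below these values, for instance at 90.2, 93.0 and 203 in NCU09639, where the last, that of rlp2, did not pass (1.52 ± 0.93).

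NCU09637 stood at 705 in wild type and 6370 without eaf-3. It was higher by 3.18 ± 0.85 without eaf-3 and stood at -3.30 ± 0.98 with TSA, called lower, in the authors' deposited table. Its 11436 bp model contains that of pks-5 whole and overlaps NCU09636, so reads of the 3 genes may have been shared. pks-5 was lower with TSA (-3.86 ± 1.02) and did not pass without eaf-3 (3.35 ± 1.60). The TSA table gives an average of 19370 for NCU09637, but which libraries that average covers is not stated. In that comparison 20 genes had a fold change of exactly 0 with an average above 0. The TSA average and the levels of the deletion set are therefore not compared. Baseline levels of the untreated N6279 cultures could not be derived.

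Between this run and the chromosome end, NCU09635 and NCU10285 were higher without eaf-3 too, by 4.60 ± 1.02 and 3.97 ± 0.94 in the authors' deposited table. NCU10285 was lower with TSA (-3.24 ± 1.08) and NCU09635 did not pass (-1.51 ± 0.77). On the inner side NCU10572 was called in neither (1.72 ± 0.82 and -1.02 ± 0.54). NCU09642 was slightly lower without eaf-3 (-0.45 ± 0.17) and overlaps NCU10572.

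**Figure D3:**
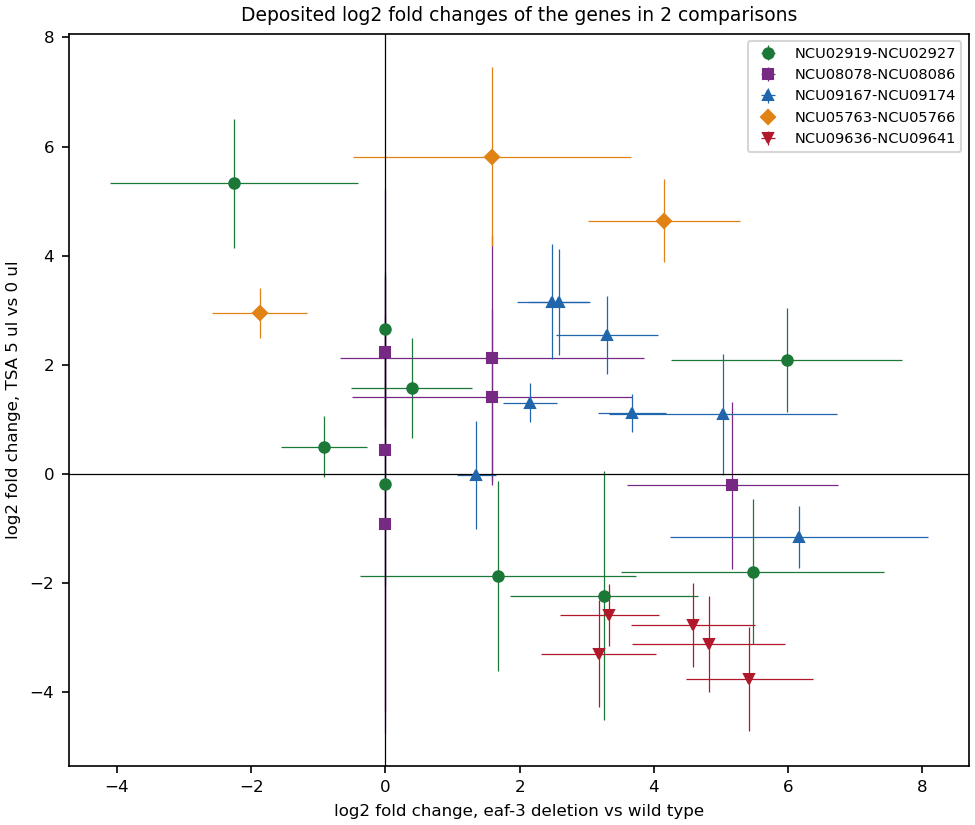
Deposited log2 fold change without eaf-3 (x axis) and with TSA (y axis) for the 31 genes listed in both tables, 1 symbol per run, with bars of 1 implied standard error; points at 0 on the x axis have no error. The 5 genes of NCU09636-NCU09641 lie at the lower right, and those of NCU05763-NCU05766 lie between 2.95 and 5.82 on the y axis.

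**Figure D4:**
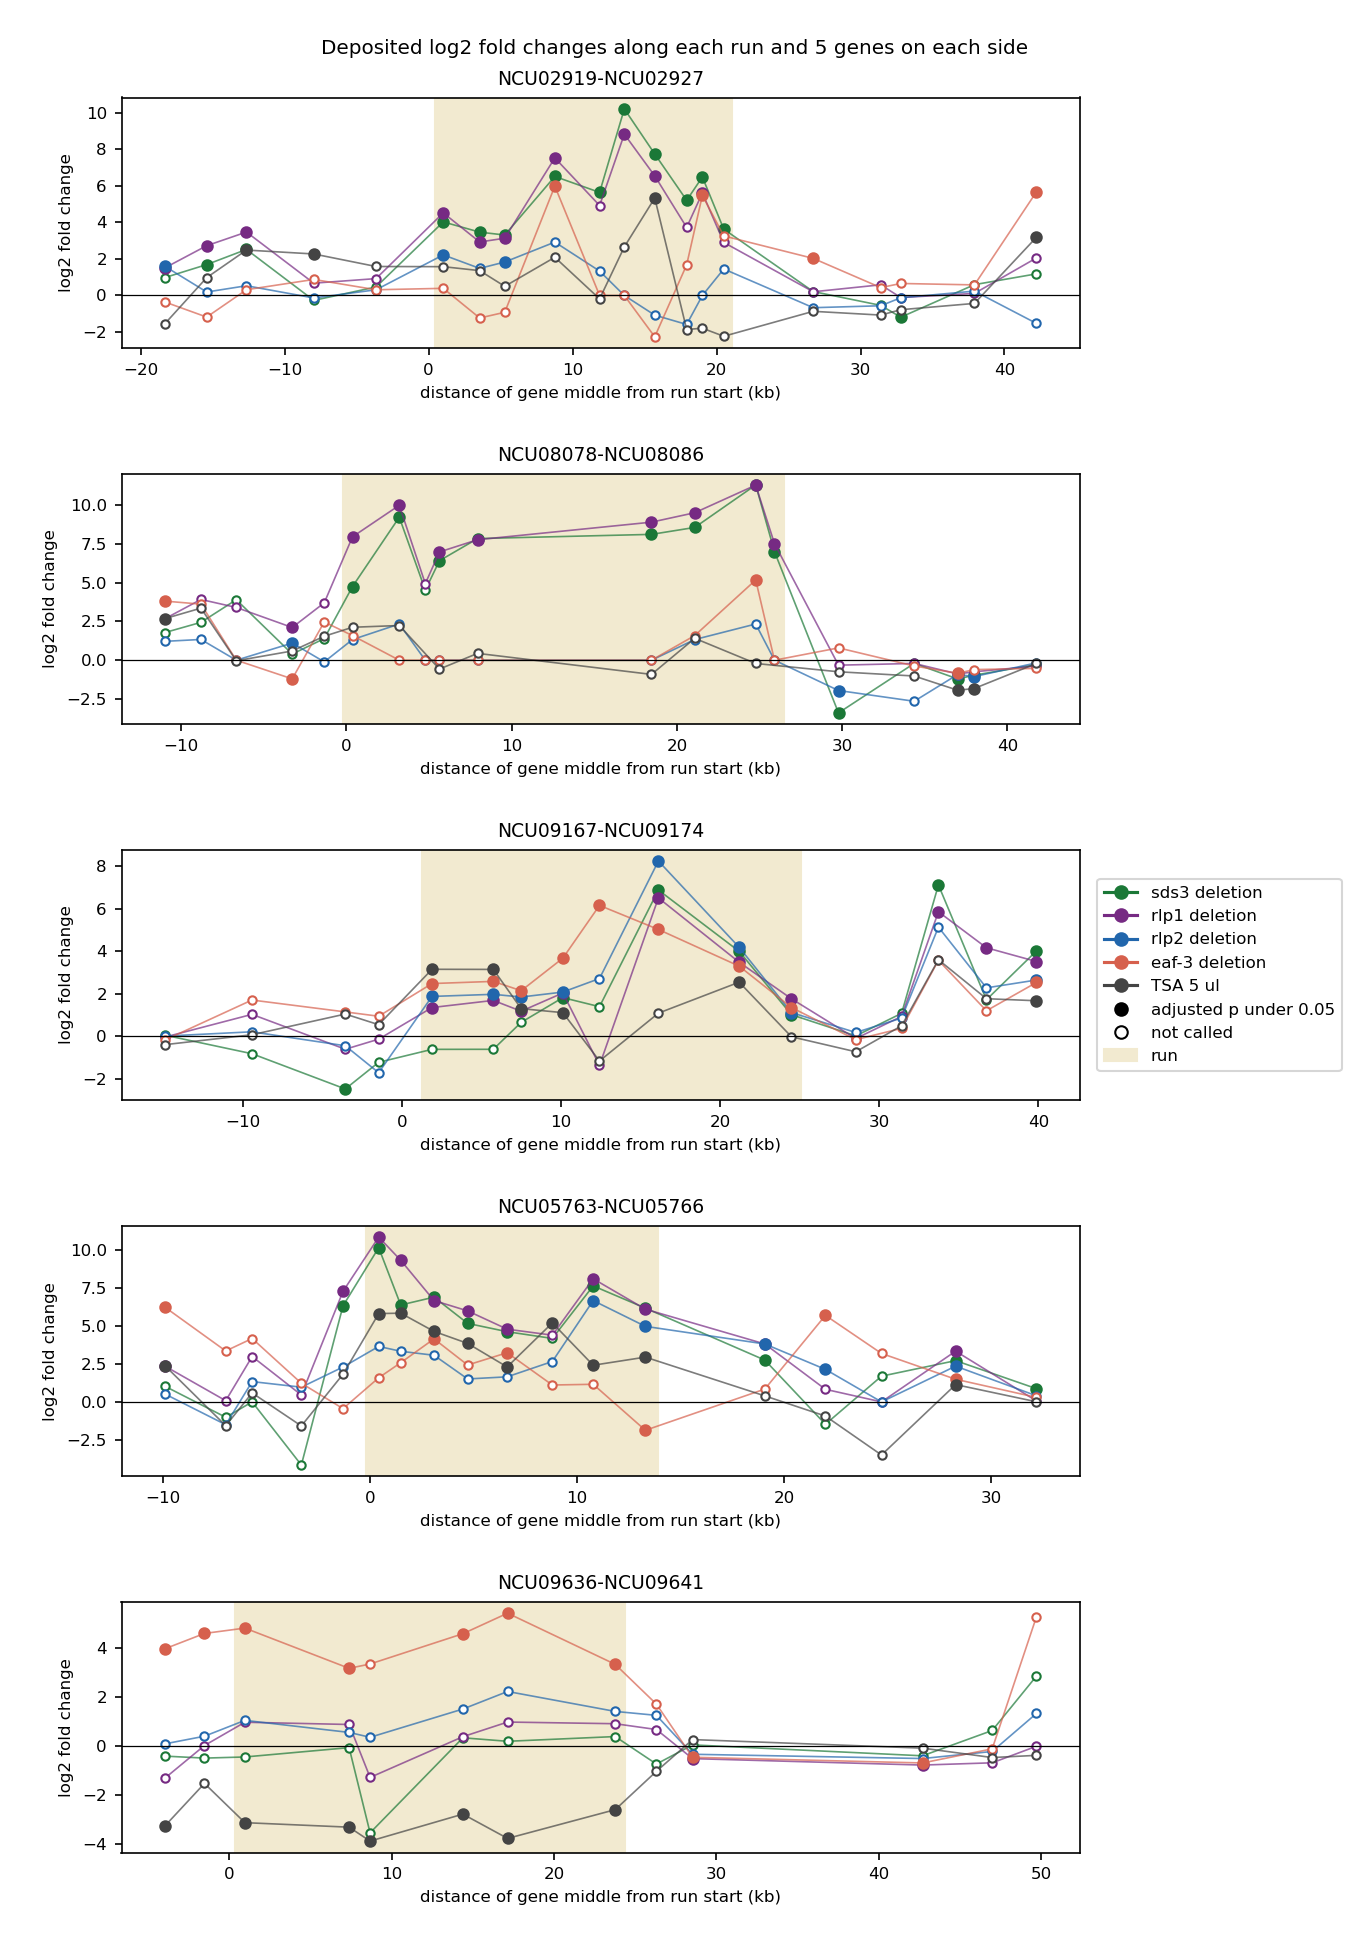
Deposited log2 fold changes against distance from the start of each run in kb, with 5 protein-coding genes on each side; lines join neighbouring genes of 1 comparison, filled points have an adjusted p under 0.05, and the shaded band marks the run. In the top panel the 2 genes on each side of the run lie between -0.54 and 0.92 in the sds3 and rlp1 comparisons, while NCU02930 and NCU02931 beyond them are higher in both, and in the fourth panel the rise in these comparisons extends by 1 gene on each side of the run.

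Counted over the whole genome, adjacent genes called higher were not rare. Stretches of at least 4 adjacent protein-coding genes, all called higher, numbered 41, 19, 9 and 63 in the sds3, rlp1, rlp2 and eaf-3 deletions, and 2 with TSA. The longest without sds3, of 10 genes, was that from NCU02927 to NCU02919 with the intervening NCU16468. Its genes NCU02919, NCU02921 and NCU02924 did not pass an adjusted p below 0.01. Without rlp1 the longest held 6 genes, and of 3 such stretches 1 lay within NCU08078-NCU08086 and 1 overlapped NCU05763-NCU05766. Without eaf-3 NCU09167-NCU09174 was 1 of 3 stretches of 8 genes, behind 1 of 17 genes on linkage group VI. With TSA NCU09636-NCU09641 with pks-5 was the only stretch of at least 4 adjacent genes called lower. Between the members of the 5 runs lie 8 other genes, 5 of them in NCU05763-NCU05766. Of the 8, 6 were higher in each of the sds3 and rlp1 deletions, with 4 from that run. In the rlp2 deletion 1 was higher, as was 1 in the eaf-3 deletion. With TSA 5 were higher, all in that run, and pks-5 was lower. The value of pks-5 was -3.53 in the sds3 deletion, not called. Of all tested genes 19.0%, 14.6%, 6.99%, 20.2% and 5.15% were higher (sds3, rlp1, rlp2, eaf-3, TSA). The ranges were picked by fold change, so nothing is read from this contrast.

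A list of 8 genes linked to facultative heterochromatin held writers and readers of chromatin marks and also the histone deacetylase gene hda-3. Of these, 1 was higher and 1 lower in the sds3 deletion. In the rlp1 deletion 1 was higher and 2 lower, in the eaf-3 deletion 1 was higher and 1 lower, and none was called in the rlp2 deletion or with TSA; the shares of all genes called higher and lower are those given above for each comparison. The methyltransferase gene set-7 was called in none, with values from 0.08 ± 0.22 without sds3 to 0.93 ± 0.34 with TSA in the authors' deposited table. The histone H3 lysine 36 methyltransferase gene set-2 was lower without rlp1 (-0.68 ± 0.23) and eaf-3 (-0.77 ± 0.23), and hda-3, a histone deacetylase gene, was lower without rlp1 (-0.75 ± 0.29). Of 2 regulator genes of secondary metabolism, ve-1 and NCU00646, both were lower without sds3 (-0.47 ± 0.18 and -1.04 ± 0.40) in the authors' deposited table, and ve-1 was lower with TSA (-1.07 ± 0.25). Also called lower were ve-1 without rlp1 (-0.47 ± 0.18) and NCU00646 without rlp2 (-1.27 ± 0.40) in the authors' deposited table.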

How the data were processed

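Libraries of messenger RNA (14) were made with a kit that keeps strand, per the labels' protocols. The submitters' processing notes list STAR 2.7.3a, RSEM 1.3.1 and DESeq2 1.24.0 with no role for any; build, annotation and strand setting are not given in the sources used. The 5 tables deposited by the authors hold, per the file headers, an average normalized signal and a log2 fold change for each gene. The same deposited tables give its p-value, its FDR and a category score. For all 9477 genes the 4 deletion tables had the same average. The deposited FDR matched Benjamini-Hochberg adjusted p-values, and the score was not 0 where the FDR lay under 0.05 and the log2 fold change was above 2 in size.

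No gene was tested anew. A standard error is the size of a fold change over the normal quantile that its two-sided p-value stands for; this step was tested on simulated data. Fold changes of exactly 0 have none. Group levels follow from the average and the fold changes, as stated above. Gene order, length and symbols came from a RefSeq gene table (assembly NC12), in which 9551 of 9552 identifiers matched. The table gives no strand, and no sequence of these genes was used here. A chromosome end is the first base or the end of the last listed gene. All 33 members are named, together with the genes between them and 2 on each side. The members and all gene lists were chosen with earlier results of these data known. The p-values rest on 2 libraries per group, different strains in the deletion set and biological replicates of 1 strain for TSA. Tools were Python 3.11.15, pandas 2.3.3 and SciPy 1.17.1. Alternatives were an FDR under 0.01, the authors' category, centring on the median, adjustment over all genes with a p-value and a mean of at least 10. A count over every gene in the spans, and 1 without overlapping gene models, were chosen after seeing the data.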

Additional observations from a re-analysis of the deposited data

How the results depend on the processing

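Of 88 calls of a member in a comparison, higher or lower, 73 held at an FDR under 0.01 and 73 under the authors' category, 86 with the adjustment over all genes with a p-value, and 88 after centring on the median. With a mean of at least 10, all 78 calls of members that pass that minimum held. Centring was the only one of these that moves a fold change, and no called member changed sign with it. The counts of members called higher over all 5 runs moved by over 1.5 times in 2 cases. With the authors' category 5 members rather than 10 were higher in the rlp2 deletion, since that category also asks for a larger fold change. Counted over all 41 protein-coding genes in the spans, 14 rather than 9 were higher with TSA, since 5 genes between members were added. Leaving out the 3 members whose models overlap another protein-coding gene moved no such total by that much; in NCU09636-NCU09641 it left 3 of 5 called. Counts within single runs moved more often. In NCU09167-NCU09174 the authors' category gave 2 for 4 (sds3), 3 for 7 (rlp1), 3 for 7 (rlp2) and 3 for 5 (TSA), and an FDR under 0.01 gave 2 for 5 with TSA. In NCU02919-NCU02927 an FDR under 0.01 gave 1 for 2 in the rlp2 and in the eaf-3 deletion, the authors' category and the adjustment over all genes gave 1 for 2 in the rlp2 deletion, and a mean of at least 10 gave 5 for 9 (sds3) and 1 for 2 (eaf-3). The call of NCU05766 as lower in the eaf-3 deletion was lost at an FDR under 0.01 and under the authors' category. Counting every gene in NCU05763-NCU05766 gave 7 for 3 (sds3), 7 for 3 (rlp1), 2 for 1 (rlp2), 2 for 1 (eaf-3) and 8 for 3 (TSA). No paired analysis was possible because the tables hold no values per library; for the same reason no replicate could be left out, and whether 1 library decides a value is unknown. Depth is unknown. In the deletion set 7 members had a deposited average under 10 and 18 had an implied wild type level under 1, and the fold changes of these genes have large errors.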
